A study of Mus musculus with 3 samples.

Results

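The genes described here build and serve the lysosome: the vacuolar ATPase that acidifies it, the cathepsins that digest protein inside it, its membrane and Ragulator proteins, and the autophagy proteins that deliver cargo to it. They were chosen by gene name, as names starting with Atp6v, Atp6ap, Lamp, Lamtor, Atg or Gabarap, or Cts followed by 1 letter. In the authors' deposited tables of genes that differed between genotypes, 44 of 8193 beta-cell genes had such a name, with 2 of 186 in alpha cells and 2 of 231 in delta cells. The 4 alpha-cell and delta-cell entries are 3 genes (Ctsz, Ctsl and Atp6ap2) that the beta-cell table also holds. GENCODE M21 gives 75 protein-coding genes with such a name, and those outside the tables were not analysed here.

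Pancreatic islets of 2 mice of genotype IRE1αβ-/-, called knockout below, were compared with islets of 1 IRE1αfl/fl control mouse by droplet single-cell RNA sequencing. The β of that name is for beta cells, so a knockout alpha or delta cell below means a cell from a knockout mouse. In which cells the gene was deleted was not analysed here. Every mouse was NOD/ShiLtJ, a strain that develops autoimmune diabetes, was 5 weeks old, and was given tamoxifen at 10 mg per ml over 5 days to activate Cre. IRE1α is a sensor of unfolded protein in the endoplasmic reticulum. The sources used here name no promoter for Cre, and islets were hand-picked and kept overnight in culture before dissociation. Ern1, the gene of IRE1α, had 0.742 UMIs per knockout beta cell and 0.509 per control beta cell, so the count of this gene does not mark the deletion; where the floxed exons lie relative to the captured tag was not analysed here. The values are mean unique molecular identifiers (UMIs) per cell, each UMI standing for 1 captured transcript, and they were not scaled for depth.

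In beta cells the means covered 815 knockout cells, pooled over both mice, and 829 control cells. In alpha cells there were 304 and 177 cells of the knockout mice and 142 control cells, and in delta cells 138 and 78 cells of the knockout mice and 101 control cells. Listed genes summed to 24796 UMIs per knockout beta cell and 31552 per control beta cell. In the beta-cell table, 6 of 8 beta-cell markers were listed, among them both insulin genes, and all 6 were lower in knockout cells. They summed to 13364 UMIs per knockout cell and 22059 per control cell. A listing marks a difference between genotypes and not a cell type. Gcg was not analysed in alpha cells and Sst was not analysed in delta cells. The labels of all 3 cell types rest on the authors' assignment.

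A lysosome works only when acid. The vacuolar ATPase has a soluble V1 sector that splits ATP and a membrane Vo sector that carries protons, and it also acidifies insulin granules, where proinsulin is cut. Cathepsins are made as inactive precursors and become active in the acid lumen. Autophagy wraps cytoplasm in a membrane marked by lipid-bound ATG8 proteins and fuses it with lysosomes, a route by which beta cells also clear insulin granules. Ragulator tethers the growth kinase complex mTORC1 to the lysosome surface, and the transcription factors TFEB and TFE3 drive many of these genes through sites built on the sequence CACGTG.

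Promoter windows were taken from RefSeq (GRCm38.p6), 250 bases before to 50 bases after each annotated start, and 36 of the 44 genes matched. The letters CACGTG, which read the same on both strands, occurred in 13 of these 36 genes, made up of 4 of 11 proton pump genes, 4 of 6 cathepsins, 2 of 5 membrane and Ragulator genes and 3 of 14 autophagy genes. Counted by window, they were in 34.2% of 38 member windows and in 7.15% of all 32851 windows. The longer form TCACGTGA, which contains CACGTG, occurred in 15.8% of the member windows and 0.974% of all windows. The fuller consensus of the CLEAR element, the TFEB site of lysosomal genes, was in 0 of 38 member windows and in 0.326% of all windows. None of the member windows held TGACGTGG on either strand, letters that 0.676% of all windows hold. The 6 genes with TCACGTGA are shown because they span the digestive, pump and autophagy groups; capitals mark the 8 matching bases, and Ctsa has a pair of them.
Ctsa (chr2:164833750-164833777, plus strand): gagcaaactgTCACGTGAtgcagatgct
Ctsa (chr2:164833767-164833794, plus strand): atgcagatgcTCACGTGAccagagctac
Ctsd (chr7:142387909-142387936, minus strand): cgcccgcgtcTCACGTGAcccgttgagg
Atp6v0d1 (chr8:105566051-105566078, minus strand): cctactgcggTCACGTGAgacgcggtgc
Atp6v1a (chr16:44139374-44139401, minus strand): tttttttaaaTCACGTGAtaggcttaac
Atg3 (chr16:45158747-45158774, plus strand): gagagtcgagTCACGTGAggccttaggt
Atp6v0e (chr17:26676388-26676415, plus strand): agcgcgccgaTCACGTGAgcctctgttg

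The windows of Ctsz and Gabarapl1, the cathepsin and the ATG8 gene with the highest beta-cell ratios described below, held none of these letters. They are shown whole, with capitals from the annotated start onward.
Ctsz (chr2:174438990-174439289, minus strand): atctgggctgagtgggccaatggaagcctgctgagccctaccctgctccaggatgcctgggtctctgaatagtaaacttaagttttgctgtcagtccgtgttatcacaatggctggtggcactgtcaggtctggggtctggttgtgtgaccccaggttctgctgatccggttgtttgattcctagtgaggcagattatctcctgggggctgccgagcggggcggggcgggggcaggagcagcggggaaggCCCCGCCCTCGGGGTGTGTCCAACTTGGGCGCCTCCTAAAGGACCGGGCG
Gabarapl1 (chr6:129532942-129533241, plus strand): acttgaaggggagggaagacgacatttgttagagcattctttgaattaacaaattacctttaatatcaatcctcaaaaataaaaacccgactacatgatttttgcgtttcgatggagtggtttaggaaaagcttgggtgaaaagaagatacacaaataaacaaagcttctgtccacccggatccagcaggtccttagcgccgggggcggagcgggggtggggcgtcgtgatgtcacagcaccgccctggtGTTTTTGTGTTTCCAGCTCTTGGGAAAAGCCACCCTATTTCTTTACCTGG
Genes with and without CACGTG had median log2 ratios of 0.40 and 0.35 in beta cells, and those with and without TCACGTGA had 0.31 and 0.43. The presence of the letters thus went with no clear difference in the ratio, which was described and not tested.

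In knockout beta cells, the cathepsin genes stood highest of the 4 groups, proton pump genes had nearly the same UMIs per cell as in the control, and membrane, Ragulator and autophagy genes lay between. Summed over the group, the 7 listed cathepsins had 27.3 UMIs per knockout cell and 19.4 per control cell, a ratio of 1.41 [1.38 to 1.44]. Here and below a ratio is knockout over control, with its exact 95% interval in brackets, which covers counting error only. The 16 proton pump genes summed to 56.2 UMIs per knockout cell and 51.5 per control cell, a ratio of 1.09 [1.08 to 1.11]. For the 6 membrane and Ragulator genes the sums were 15.3 and 12.9 UMIs per cell in knockout and control cells, a ratio of 1.18 [1.15 to 1.21], and for the 15 autophagy genes they were 27.2 and 24.1, a ratio of 1.13 [1.11 to 1.15]. With 1 control mouse and pooled knockout mice, no spread between mice is known in beta cells and no test was made.

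Genes were therefore counted by a fold of at least 1.5. Of the 44 members, 13 (29.5%) were higher by this rule, against 45.7% of all listed beta-cell genes, and 0 were lower, against 2.47%. By any amount 37 were higher and 7 lower, beside 95% and 5.04% of all listed genes. The median log2 ratio of the members was 0.34, that of all listed genes 0.54, and 30 members lay below the median of all listed genes. Among genes of like abundance the members were ordinary, with 21 above and 23 below the median of the listed genes in their abundance range. The median log2 ratio of all listed genes was 0.82 under 0.3 UMIs per cell and 0.19 between 3 and 10, and the part of abundance in the members' share past the fold was not tested.

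**Figure D1:**
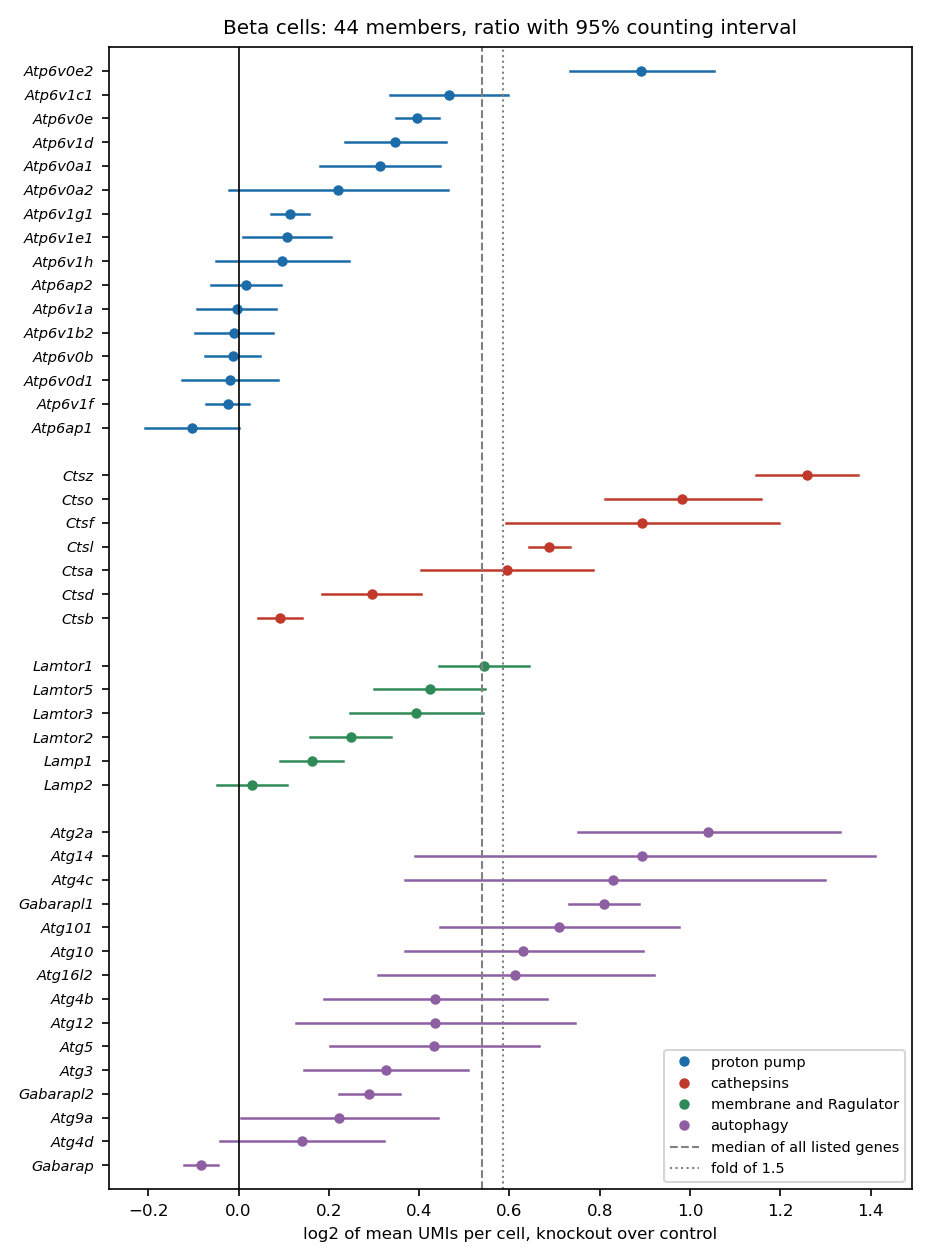
Log2 ratio of mean UMIs per cell, knockout over control, of the 44 members in beta cells, by group from the proton pump at the top to autophagy at the bottom. Points are ratios and bars the 95% counting intervals; the dashed line is the median of all listed genes (0.54) and the dotted line a fold of 1.5. Of 16 pump genes, 10 lie within 10% of equal, while 5 of 7 cathepsins lie right of the dotted line. Of all listed genes 45.7% lie right of the dotted line, and their share within 10% of equal was not computed.

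The direction of these ratios depends on the scale. As UMIs per cell 7 members were lower, but all 44 were higher once each column was scaled to its listed total. With Ins1, Ins2 and Iapp left out of that total, 26 were higher and 18 lower. Those 3 genes filled much of the control total. Of all listed genes 95% were higher before any scaling, and scaling to the listed total raised every ratio. Past the fold, 83.2% of all listed genes were then higher, and 25.7% with those 3 genes left out. Listed genes themselves avoided a band of ratios: of 1664 genes averaging at least 1 UMI per cell, none lay between the ratios 0.727 and 0.848, and the ratio of the listed totals, 0.786, fell inside that band. All 44 members lay above it, as did the 95% of all listed genes that were higher in knockout cells. A gene with equal UMIs per cell could thus be listed, as Atp6v1f was, with an adjusted p of 8.12e-19 in the authors' deposited table.

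**Figure D2:**
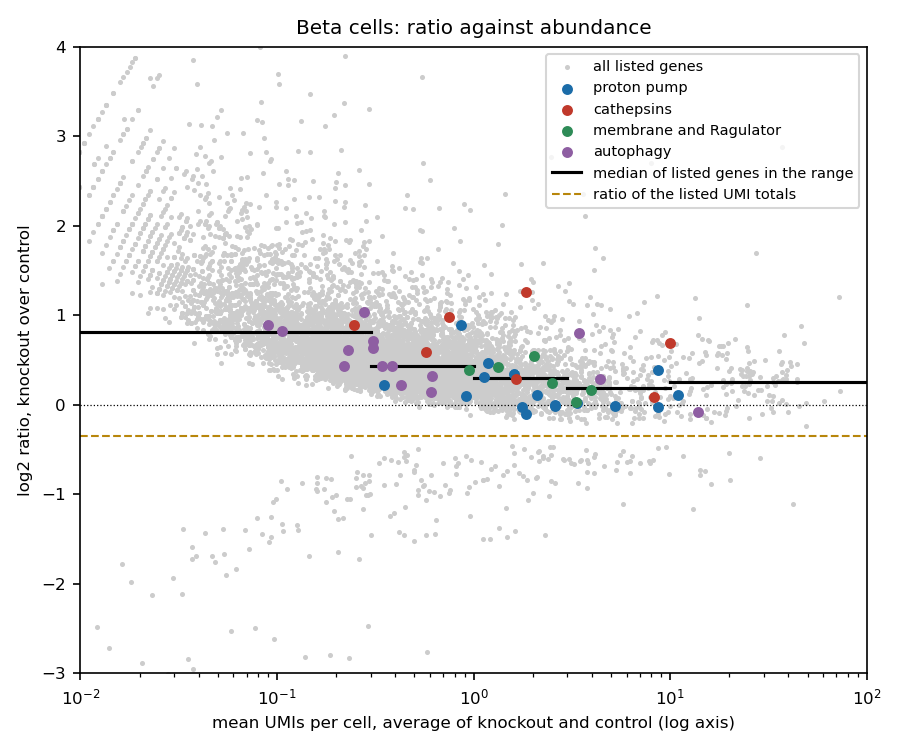
Log2 ratio of knockout over control in beta cells (vertical axis) against the average of both means (horizontal log axis), for all listed genes in grey and members in colour; 180 genes lie outside the axes. Black bars are medians of all listed genes in 5 abundance ranges and the dashed line is the ratio of the listed totals (0.786, or -0.35 on the log2 scale), which runs through an empty band that has every member above it.

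Core subunits of the pump's V1 sector matched the control closely. The 8 listed V1 genes summed to 31.4 UMIs per knockout cell and 29.8 per control cell, a ratio of 1.06 [1.04 to 1.08]. Of these genes 6 were within 10% of equal, and the share of all listed genes this close was not computed. Atp6v1a, the catalytic A subunit, had 2.60 UMIs per knockout cell and 2.61 per control cell, a ratio of 0.997 [0.939 to 1.06]. Its partner in the catalytic ring, Atp6v1b2, was at 0.993 [0.935 to 1.06], and Atp6v1f of the central stalk at 0.984 [0.952 to 1.02]. For these 3 genes the intervals include equality, so no difference was detectable in UMIs per cell at this depth. Atp6v1g1, a peripheral stalk subunit and the V1 gene with the most UMIs, had 11.4 UMIs per knockout cell and 10.5 per control cell. The 2 highest V1 ratios belonged to Atp6v1c1, the subunit that helps lock V1 onto Vo, at 1.38 [1.26 to 1.51], and to the rotor subunit gene Atp6v1d, at 1.27 [1.18 to 1.38]. The peripheral stalk gene Atp6v1e1 and the regulatory subunit gene Atp6v1h were at 1.08 and 1.07.

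The membrane sector was more varied, and it held the 1 pump gene past the fold among those chosen by name. Atp6v0e2, encoding an isoform of the small e subunit (ENSMUSG00000039347, mm10 chromosome 6, 48537615 to 48541801, plus strand), had 1.12 UMIs per knockout cell and 0.604 per control cell, a ratio of 1.86 [1.66 to 2.07]. Its paralog Atp6v0e had 9.91 and 7.53 UMIs per knockout and control cell, a ratio of 1.32 [1.27 to 1.36]. As a share of the UMIs of the pair, which does not depend on depth, Atp6v0e2 made up 10.2% [9.55 to 10.8] in knockout and 7.43% [6.82 to 8.08] in control cells. Atp6v0b, a proton-carrying ring subunit, was at 0.991 [0.95 to 1.03], and Atp6v0d1, which links the ring to the rotor, at 0.987 [0.917 to 1.06]. The a subunits, which form the proton path and steer the pump to its organelle, were at 1.24 for Atp6v0a1 and 1.17 for Atp6v0a2. The third listed a subunit gene, Tcirg1, carries another name and was also past the fold, at 3.23 [1.84 to 5.95], on 54 and 17 UMIs in knockout and control cells. Of the accessory genes, Atp6ap2, whose product is also known as the prorenin receptor, was at 1.01 [0.959 to 1.07], and Atp6ap1 had the lowest ratio of all members, 0.931 [0.866 to 1.00]. Centred on the median of all listed genes, Atp6ap1 and the autophagy gene Gabarap were the 2 members lower past the fold, beside 4.19% of all listed genes.

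All 7 listed cathepsins had more UMIs per knockout beta cell, 5 of them past the fold. Of all listed genes 95% were higher and 45.7% past the fold. Ctsz, a cysteine carboxypeptidase (ENSMUSG00000016256, chromosome 2, 174427493 to 174439039, minus strand), had 2.60 UMIs per knockout cell and 1.09 per control cell, a ratio of 2.39 [2.21 to 2.59]. This was the highest ratio of the 44 members, and the only member ratio that stayed past the fold after centring on the median of all listed genes, as 16% of all listed genes did. Ctsl, a cysteine endopeptidase (ENSMUSG00000021477, chromosome 13, 64359337 to 64370890, minus strand), had 12.3 UMIs per knockout cell and 7.64 per control cell, a ratio of 1.61 [1.56 to 1.66]. The less abundant cysteine proteases Ctso and Ctsf were at 1.98 [1.75 to 2.23] and 1.86 [1.51 to 2.29]. Ctsa, a serine carboxypeptidase that also shields other lysosomal enzymes from breakdown, was at 1.51 [1.32 to 1.72].

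Cathepsins B and D, the other main digestive proteases, did not follow them past the fold. Ctsb, a cysteine protease, had 8.59 UMIs per knockout cell and 8.06 per control cell, a ratio of 1.07 [1.03 to 1.10], and Ctsd, an aspartic protease, was at 1.23 [1.14 to 1.32]. The make-up of the cathepsin UMIs differed accordingly. Ctsb held 31.4% [30.8 to 32.0] of them in knockout and 41.5% [40.8 to 42.3] in control cells, while Ctsl held 45.1% [44.4 to 45.7] and 39.4% [38.6 to 40.1], and Ctsz held 9.52% [9.13 to 9.91] and 5.60% [5.25 to 5.97]. Shares within a family were chosen after the values were seen; their intervals are exact binomial ones and cover counting error only.

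Marker genes of several other cell types also had more UMIs per knockout beta cell, where 95% of all listed genes were higher. Alpha-cell markers (4 of 7 listed) summed to 114 UMIs per knockout beta cell and 49.2 per control beta cell, and the PP-cell markers Ppy and Pyy to 107 and 21.7. Red-cell markers (3 of 5 listed) summed to 22.6 UMIs per knockout beta cell and 0.0639 per control beta cell. Macrophages are rich in cathepsins; 4 of 18 of their markers were listed, none of them at 0, summing to 1.89 UMIs per knockout cell and 0.899 per control cell. Within that list Cd14 was at 4.72 [4.13 to 5.42], while Cd68, a lysosomal membrane protein of macrophages, was at 0.141 [0.102 to 0.192]. Whether these marker UMIs came from other cells or from the beta cells themselves was not tested, nor was their part in the cathepsin ratios.

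**Figure D3:**
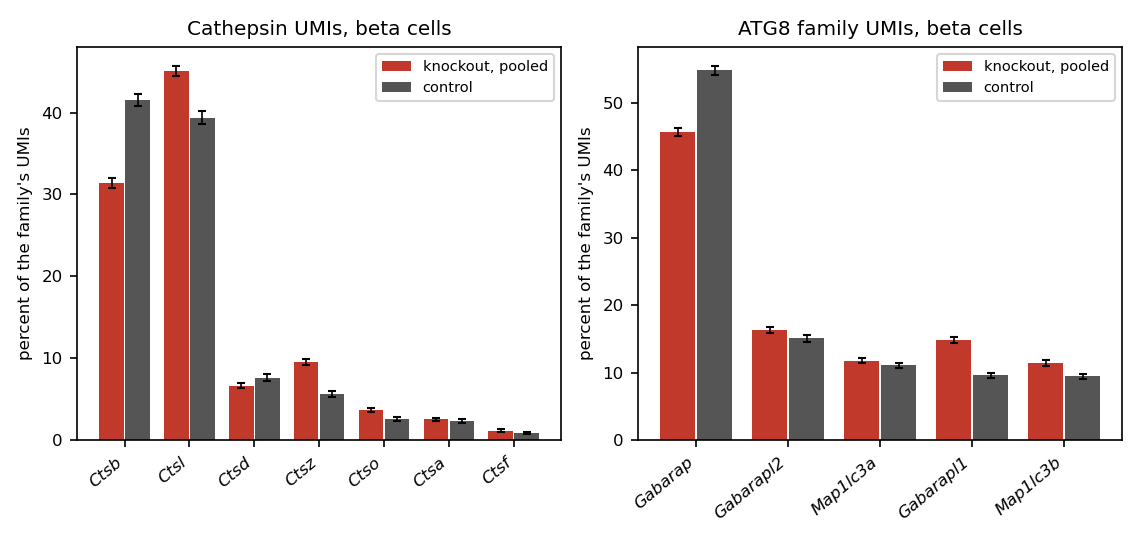
Percent of the cathepsin UMIs (left) and of the ATG8 family UMIs (right) that each gene held in beta cells, knockout in red and control in grey, with 95% exact binomial intervals. Ctsb held 31.4% in knockout and 41.5% in control cells, and Gabarap 45.6% and 54.8%.

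Membrane and Ragulator genes were higher in 6 of 6 cases and past the fold in none, where 95% of all listed genes were higher and 45.7% past the fold. Lamp1 and Lamp2, heavily glycosylated proteins that coat the lysosome's inner face, were at 1.12 [1.07 to 1.17] and 1.02 [0.968 to 1.08]. For Lamp2 no difference was detectable in unscaled UMIs per cell. The 4 listed Ragulator genes summed to 7.73 UMIs per knockout cell and 5.90 per control cell, a ratio of 1.31 [1.26 to 1.36]. Lamtor1, the lipid-anchored subunit that holds the complex on the membrane, had 2.42 UMIs per knockout cell and 1.66 per control cell, a ratio of 1.46 [1.36 to 1.56]. The scaffold genes Lamtor5, Lamtor3 and Lamtor2 were at 1.34, 1.31 and 1.19. Relative to the median of all listed genes, only Lamtor1 was not below 0 on the log2 scale.

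Among autophagy genes, 14 of 15 were higher, beside 95% of all listed genes, and 7 were past the fold (46.7%, beside 45.7% of all listed genes). All 12 listed Atg genes were higher as UMIs per cell, summing to 4.52 UMIs per knockout cell and 3.30 per control cell, a ratio of 1.37 [1.31 to 1.44]. Their median log2 ratio was 0.52, beside 0.54 for all listed genes. Atg2a, which passes lipid to the growing membrane, had 0.372 UMIs per knockout cell and 0.181 per control cell, a ratio of 2.05 [1.68 to 2.52]. Atg14, which directs the lipid kinase that starts the membrane, was at 1.86 [1.31 to 2.66], the protease gene Atg4c at 1.78 [1.29 to 2.46], and Atg101 of the starting kinase complex at 1.64 [1.36 to 1.97]. These are rare transcripts, and their intervals overlap widely. Atg10, the enzyme that loads ATG12, and Atg16l2 were just past the fold at 1.55 and 1.53. The conjugation genes Atg5, Atg12 and Atg3 were at 1.35, 1.35 and 1.25, and Atg4b at 1.35. Lowest were Atg9a, a lipid scramblase gene, at 1.17 [1.00 to 1.36], and Atg4d at 1.10 [0.972 to 1.25].

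The ATG8 genes, whose products are linked to lipid on the autophagosome, differed among themselves more than their sum did. Gabarapl1 (ENSMUSG00000030161, chromosome 6, 129533160 to 129542346, plus strand) had 4.40 UMIs per knockout cell and 2.51 per control cell, a ratio of 1.75 [1.66 to 1.85]. Gabarap, the member of the family with the most UMIs, had 13.5 UMIs per knockout cell and 14.3 per control cell, a ratio of 0.944 [0.919 to 0.969], and Gabarapl2 was at 1.22 [1.17 to 1.28]. With the LC3 genes Map1lc3a (1.21) and Map1lc3b (1.37) included, Gabarapl1 held 14.9% [14.4 to 15.3] of the ATG8 UMIs in knockout and 9.62% [9.23 to 10.0] in control cells. Gabarap held 45.6% [45.0 to 46.3] and 54.8% [54.1 to 55.5].

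Other genes of the pathway were taken from 7 lists, and their counts stand against the 95% of all listed beta-cell genes that were higher and the 45.7% that were past the fold. Of 32 listed hydrolases and activators 30 were higher and 10 (31.25%) past the fold, with a median log2 ratio of 0.46. Among them the protease gene Lgmn was at 0.985, the glycolipid-binding Gm2a at 2.26 [1.82 to 2.83] and the peptidase gene Prcp at 2.24. Of 22 other membrane genes 19 were higher and 2 (9.09%) past the fold, Sidt2 and Cln3, while Cd68, at 0.141, was lower past it. The sum of that list was lower in knockout cells, at 37.4 UMIs per knockout cell and 41.6 per control cell. Cd63, a tetraspanin of late endosomes, had 16.2 UMIs per knockout cell and 23.5 per control cell, a ratio of 0.692 [0.676 to 0.707]. All 8 other pump genes and all 14 sorting genes were higher, with 1 (12.5%) and 2 (14.3%) past the fold, both shares below that of all listed genes. The sorting genes ran from Igf2r, a receptor for mannose 6-phosphate tags, at 1.07, to Sumf1, which activates sulfatases, at 1.69.

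The 3 listed cathepsin inhibitors differed among themselves. Cst6, a secreted cystatin, was past the fold at 1.61 [1.22 to 2.14]. Cst3, the secreted cystatin C, had 17.3 UMIs per knockout cell and 14.9 per control cell, a ratio of 1.16 [1.14 to 1.19], and the cytosolic Cstb was at 0.993 [0.952 to 1.04]. Of 29 other autophagy genes 27 were higher and 7 (24.1%) past the fold, up to Ulk1, the starting kinase, at 1.98 [1.66 to 2.36]; the mitophagy receptor gene Bnip3 was at 0.359 [0.327 to 0.393]. Among 13 regulators, all higher, Tfe3 was at 1.58 [1.39 to 1.79] and the mTOR-binding Deptor at 1.61 [1.47 to 1.76]. The medians of the 7 lists lay between 0.22 and 0.46 on the log2 scale, each below the 0.54 of all listed genes. The lists were not matched for abundance, and the median of all listed genes varied with it.

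In alpha cells, both members were cathepsins and both were lower in each knockout mouse, opposite to beta cells. The tables as a whole also leaned apart, with a median log2 ratio of all listed genes of -0.29 in alpha cells and 0.54 in beta cells. Listed genes summed to 2214 and 2272 UMIs per alpha cell in the knockout mice and 2534 in the control. The knockout mice are given as the first and the second column, since the column numbers were not matched to particular mice. Ctsl had 12.1 and 11.7 UMIs per cell in the knockout mice and 20.1 in the control, and the columns' ratios were 0.600 [0.571 to 0.630] and 0.582 [0.550 to 0.616]. The knockout mean was 11.9 ± 0.251 (SD, n = 2), so the gap to the control was far wider than that between the knockout mice. With 1 control mouse the spread among controls is not known, and the values were not scaled for depth. Ctsz had 6.01 and 4.76 UMIs per cell in the knockout mice and 8.27 in the control, with ratios of 0.726 [0.674 to 0.782] and 0.575 [0.526 to 0.629]. Its knockout values differed more, at 5.38 ± 0.884 (SD, n = 2), and also lay below the control.

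By the mean of the knockout columns both alpha-cell genes were lower past the fold, beside 30.1% of all listed alpha-cell genes, and none was higher, beside 10.8%. After centring on the median neither was past the fold, beside 14% of the listed genes. Ctsz dropped out of the count when the second knockout column was left out, and scaling to the listed total left neither past the fold. With limma across the 186 listed genes, Ctsl had an adjusted p of 0.0390 (log2 difference -0.75, lower in 2 of 2 mice) and Ctsz an adjusted p of 0.0910 (-0.61); 3.76% of the genes were lower at an adjusted p under 0.05. That fit rests on 1 residual degree of freedom, on spread pooled over the listed genes, and on genes already chosen on the same cells. Of the other pathway genes, Tecpr1, a tethering factor of autophagosomes, had 0.345 and 0.305 UMIs per cell in the knockout mice and 0.106 in the control, Bnip3 had 0.572 and 0.452 against 1.56, and Vmp1 had 3.55 and 3.38 against 2.90. Cst3 had 22.6 and 27.8 UMIs per cell in the knockout mice and 30.2 in the control. None of the 18 macrophage markers was among the listed alpha-cell genes. Beta-cell markers (3 of 8 listed, none at 0) summed to 251 and 304 UMIs per alpha cell in the knockout mice and 434 in the control, and the part of that RNA in the cathepsin values was not tested.

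In delta cells, Ctsz was higher and Atp6ap2 lower in each knockout mouse. Ctsz had 2.34 and 1.73 UMIs per cell in the knockout mice and 1.42 in the control, with ratios of 1.65 [1.35 to 2.03] and 1.22 [0.959 to 1.56]. The first knockout mouse lay above the control beyond counting error and the second did not. The mean ratio, 1.44, was under the fold that 41.1% of all listed delta-cell genes passed upward, and limma across the 231 genes gave an adjusted p of 0.291. Of 7 alpha-cell markers, 3 were listed in delta cells, and they did not all go 1 way. Gcg, the glucagon gene, had 159 and 63.5 UMIs per cell in the same knockout delta cells and 10.0 in the control. Ttr had 4.36 and 2.58 against 1.01, while Gc was lower, at 1.41 and 1.37 against 3.12. The part of alpha-cell RNA in the Ctsz values was not tested. C1qa, the 1 macrophage marker listed of 18, had 0.833 and 0.346 UMIs per cell in the knockout mice and 1.04 in the control.

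Atp6ap2 (ENSMUSG00000031007, chromosome X, 12587801 to 12617049, plus strand), an accessory subunit needed to assemble the pump, had 2.95 and 3.38 UMIs per delta cell in the knockout mice and 5.01 in the control. The columns' ratios were 0.589 [0.515 to 0.672] and 0.676 [0.580 to 0.786], and the knockout values, 3.17 ± 0.308 (SD, n = 2), lay together below the control. By the mean it was lower past the fold, beside 16% of all listed delta-cell genes, but not with the second column alone, nor once scaled to the listed total; after centring it stayed past the fold, beside 18.2%. Limma gave an adjusted p of 0.0602 (log2 difference -0.61, lower in 2 of 2 mice), where 10.4% of the genes were lower and 12.6% higher at an adjusted p under 0.05. Iapp, the amylin gene of beta cells, had 797 and 698 UMIs per delta cell in the knockout mice and 1825 in the control, and its part in the Atp6ap2 values was not tested. In beta cells Atp6ap2 was level, at 3.38 and 3.34 UMIs per knockout and control cell.

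**Figure D4:**
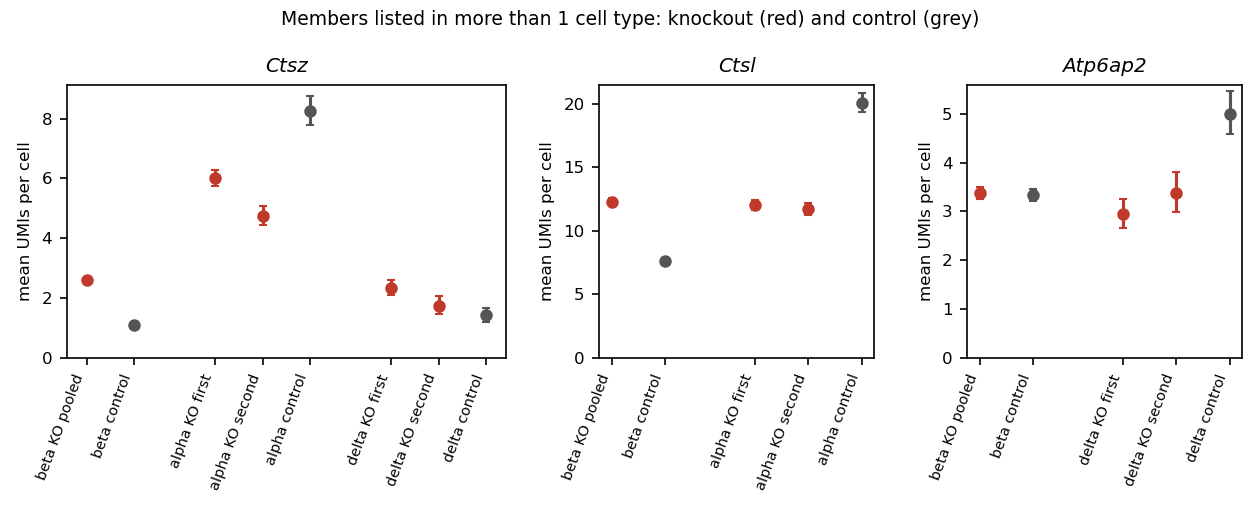
Mean UMIs per cell of Ctsz, Ctsl and Atp6ap2 in each cell type whose table lists them, knockout columns in red to the left of the control in grey. Bars are exact 95% Poisson intervals, which cover counting error only. Ctsz and Ctsl lie above the control in knockout beta cells and below it in knockout alpha cells.

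Set side by side, the knockout values of Ctsl were close in both cell types, 12.3 UMIs per beta cell and 12.1 and 11.7 per alpha cell, while the control values stood apart, 7.64 per beta cell and 20.1 per alpha cell. For Ctsz the alpha-cell values stayed above those of beta cells in every column. Ctsz had 6.01 and 4.76 UMIs per knockout alpha cell and 2.60 per knockout beta cell, against 8.27 per control alpha cell and 1.09 per control beta cell. These comparisons share the same 1 control mouse, and depth per cell differed between the tables, so the levels are given as a description.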

How the data were processed

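Per the submitters' processing notes, Cell Ranger 3.0.0 and the build mm10 were used; cell filters, doublets, free RNA, the assignment of cell types and the test behind the listing are not stated there. The authors deposited 1 table per cell type, with a signal value per column, the UMIs per cell averaged over its cells. Each value times 1 whole number, the number of cells, gave whole UMIs within 0.001 in 100% of values (99.99% in control beta cells). The p-values and q-values in the authors' deposited tables were computed by the authors from cells, which are not replicates, and served only to describe the listing; the largest q was 0.00998 for beta, 0.0101 for alpha and 0.0103 for delta cells. Tables hold only genes that passed, so counts describe listed genes. The alpha-cell header is shifted by 1 column.

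Ratios of knockout over control have no pseudocount; a group without UMIs was set to 3 UMIs over its cells. Intervals are exact at 95% (Clopper-Pearson on the split of UMIs), and UMIs vary more between cells than counting error. Where both knockout mice have a column, their plain mean was set against the control. Alternatives were a fold of 2, a filter at 0.1 UMIs per cell, a pseudocount at the 10th percentile, 3 scalings and leaving out each knockout mouse; limma 3.58.1 on log2(mean + pseudocount, 0.180 in alpha and 0.346 in delta cells) was added after seeing the data and tested on simulated data. Each allows for spread only between these mice. The variances in limma came mostly in alpha cells, and wholly in delta cells, from spread pooled over the listed genes (prior degrees of freedom 10.38 and infinite).

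The members and lists were chosen with earlier results of these data known. Named were all members in alpha and delta cells, all members of groups of at most 10 in beta cells, in larger groups the 5 highest and 5 lowest ratios and 3 highest control means, and up to 4 genes per other list; other names were chosen after their values were seen.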

Additional observations from a re-analysis of the deposited data

Results flagged for a closer look

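For the 3 members listed in more than 1 cell type, the knockout columns lay on opposite sides of the control in different cell types; none of these differences between cell types was tested. Ctsz was at a mean ratio of 0.650 in alpha cells and 1.44 in delta cells, and at 2.39 in beta cells. Ctsl was at 0.591 in alpha cells and 1.61 in beta cells. The median log2 ratio of all listed genes was -0.29 in alpha, 0.42 in delta and 0.54 in beta cells. Atp6ap2 was at 0.632 in delta cells and 1.01 in beta cells, where it was level with the control and its interval included equality; centred on the median of each table it was lower in both cell types.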

How the results depend on the processing

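The number of beta-cell members higher past the fold, 13 of 44, was 13 with the filter on low values and 8 with a pseudocount. It was 6 when scaled to the total of listed genes other than Ins1, Ins2 and Iapp, and 27 when scaled to all listed genes. With a fold of 2 it was 2, and after centring on the median 1. In the same order, the shares of all listed beta-cell genes were 45.7%, 26.5%, 25.7%, 83.2%, 19.8% and 16%. The number lower, 0, became 2 after centring (Atp6ap1 and Gabarap), beside 4.19% of all listed genes. It was 0 under the other 5 settings, beside 1.21% to 2.8% of all listed genes. In alpha cells the 2 lower members became 0 with a fold of 2, after centring and when scaled to all listed genes, and 1 when scaled without those 3 genes or by limma; without 1 knockout mouse the count ran from 1 to 2. In delta cells the 1 lower member became 0 with a fold of 2, when scaled to all listed genes and by limma, and ran from 0 to 1 without 1 knockout mouse; the 0 higher members became 1 when so scaled and ran from 0 to 1 without 1 knockout mouse. Limma, whose unadjusted p under 0.05 took in 5 higher and 44 lower of 186 alpha-cell genes, called 0 alpha-cell genes higher. Of all listed alpha-cell genes, 11.8% were lower past a fold of 2, 14% after centring and 18.8% when scaled to all listed genes. The share was 21.5% when scaled without Ins1, Ins2 and Iapp, and 26.9% or 34.4% without 1 knockout mouse. Of all listed delta-cell genes, 6.49% were lower past a fold of 2 and 7.36% when scaled to all listed genes. Scaled so, 63.2% were higher, and without 1 knockout mouse 35.1% or 38.5% were higher and 12.6% or 19.5% lower. No member past the fold changed sign under these settings. The 3 scalings moved the log2 ratios of these members by less than the fold, and a pseudocount cannot change a sign. Those settings therefore could not have given another outcome. The causes of the differences were not tested. The planned edgeR fit was not run. No paired analysis was possible because 1 control mouse faces 2 knockout mice whose columns were not matched to samples. Depth limits the rarer members: Atg14 rests on 95 and 52 UMIs in knockout and control beta cells.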
